A study of Mus musculus with 6 samples.

Results

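CD antigens are proteins of the leukocyte surface that antibodies recognise and that are used to tell blood cells apart. Their genes were taken here as the rows of an RNA-seq table whose mouse symbol is Cd, a number and at most letters after it, leaving out Cd34, Cd48, Cd93, Cd74, Cd63, Cd68, Cd79a, Cd79b, Cd2ap and Cd3eap. The rule gave 76 rows with 75 symbols of the 47643 rows in the table, Cd37 standing on 2 Ensembl IDs. It goes by name alone, so it also takes in Cd5l, a secreted protein that was listed at 0, and leaves out surface antigens whose genes carry other names.

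The cells were sorted leukaemic granulocyte-macrophage progenitors (L-GMP) of C57BL/6 mice, leukaemia cells named for the bone marrow progenitor of granulocytes and monocytes. The 3 KO libraries carry the label of a double knockout of Prkaa1 and Prkaa2, which encode the alpha subunits of AMPK, a kinase that senses low cellular energy, and the 3 WT libraries that of wild type. All 6 libraries share the strain, the leukaemia and the sort. What drives the leukaemia, how the genes were deleted and how many mice were used is not given in the sources used here. Nothing in the labels ties the 3 libraries of a genotype to separate mice, so the p-values measure the spread between libraries, which may be technical.

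CD antigens fall into protein families with different work at the membrane. Tetraspanins hold other receptors together in membrane domains, sialomucins and integrin partners govern adhesion, and CD300 and Siglec receptors pass activating or inhibitory signals on binding lipids or sialic acids. SLAM receptors bind each other or a close relative on a neighbouring cell, the B7 ligands Cd80 and Cd86 engage T cells, and Cd55 and Cd59 proteins protect a cell from complement.

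Recovered whole reads came to between 12366966 and 14019472 in the KO libraries and between 11384152 and 16406943 in the WT libraries. Values are FPKM, reads scaled by gene length and a size given to each library. Recovered from the values, these sizes were 11400436 to 12937928 in KO and 12710036 to 18096883 in WT libraries. Recovered reads exceeded the size in each KO library and fell short of it in each WT library. Fold floors and read ratios below rest on these sizes. A log2 difference is KO minus WT on log2(FPKM + 1), which understates the change of low genes. The summed FPKM ran from 649611 to 653819 in KO libraries, against 463683 to 475654 in WT libraries, so each difference was also computed with the libraries rescaled to equal sums. That step moved the median log2 difference of all genes tested to -0.41, against -0.02 as deposited, and directions that turn with it are given where they occur. Prkaa1 averaged 0.797 ± 0.285 FPKM in KO and 2.0 ± 0.200 FPKM in WT libraries (SD, n = 3 each; log2 difference -0.75, limma adjusted p = 0.00112), and Prkaa2 had 4 reads in the KO and 2 in the WT libraries. Of 10 GMP markers, 10 averaged at least 1 FPKM in KO and 9 in WT libraries. The one below it was Kit, the stem cell factor receptor, at 1.43 FPKM in KO and 0.250 FPKM in WT libraries, while Cd34, another antigen of the normal GMP gate, averaged 3.51 FPKM in KO and 27.8 FPKM in WT libraries. Of the 9 GMP markers tested, 4 were lower in KO: Cd34, Fcgr3, Fcgr2b and Ms4a3. The other 5, Mpo, Elane, Prtn3, Ctsg and Csf2rb, were higher, though Ctsg turned to -0.24 after rescaling (limma adjusted p = 1.57e-07).

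Of the 76 rows, 29 were at 0 in all 6 libraries, 20 were above 0 with a mean under 1 FPKM, and 27 reached that mean and were tested. Of these, 15 were higher and 9 lower in KO at a limma adjusted p under 0.05, and Cd151, Cd44 and Cd84 were not called. The 24 called are 88.9% of the members tested, against 78.4% of all 9108 genes tested, so most genes of these cells were called and a call by itself says little about a CD gene. By direction, 38.0% of all genes tested were higher and 40.4% lower. Of the called members 62.5% were higher in KO, against 48.5% of all called genes, and with the libraries rescaled these shares were 44.0% and 27.8%. The sizes stood further from the background than the calls did. A called log2 difference of at least 1 was found for 9 members upward and 6 downward, 55.6% of those tested, against 26.5% of all genes tested, and the median absolute log2 difference was 1.32 for the members and 0.57 for all genes. The signed median was 0.22 for the members and -0.02 for all genes, and -0.23 and -0.41 after rescaling. KO and WT libraries did not overlap for 24 of the 27 members (88.9%), against 80.6% of all genes tested. Of the 27, 5 had a WT mean under 1 FPKM and another 5 a KO mean under it, passing the filter through the other genotype alone, so these counts describe the genes that passed and not the whole set.

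**Figure D1:**
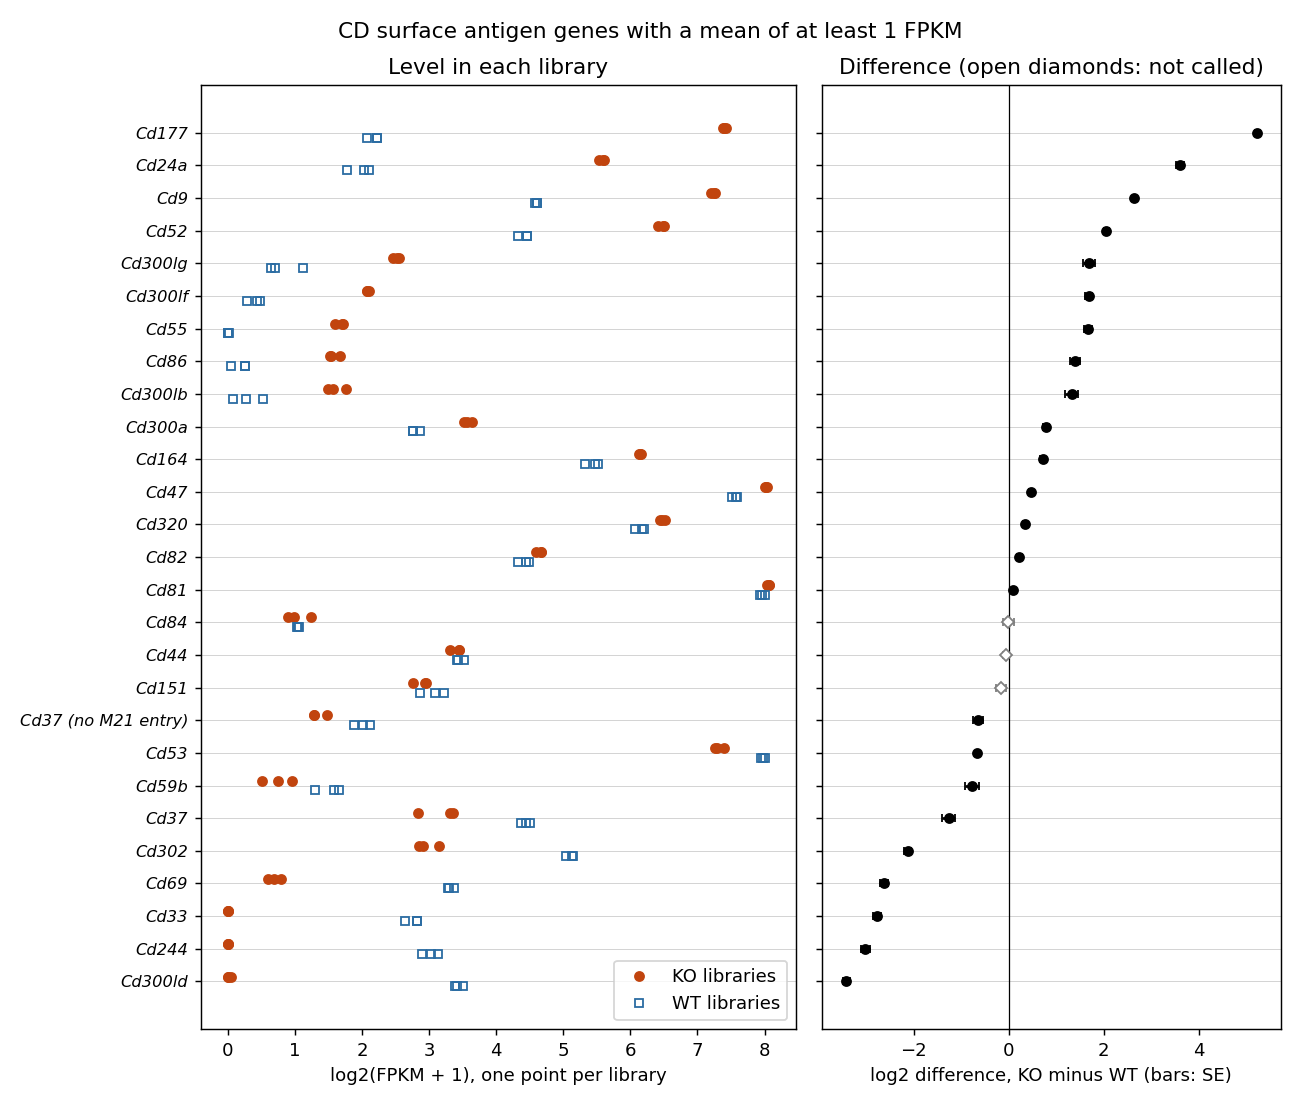
Level and difference of the 27 CD antigen rows with a mean of at least 1 FPKM, sorted by difference. Left, log2(FPKM + 1) in each KO library (filled circles) and WT library (open squares). Right, the log2 difference, KO minus WT, with bars of 1 SE, open diamonds marking Cd84, Cd44 and Cd151, which were not called. Cd177 stood at the top with 5.23 and Cd300ld at the bottom with -3.42.

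**Figure D2:**
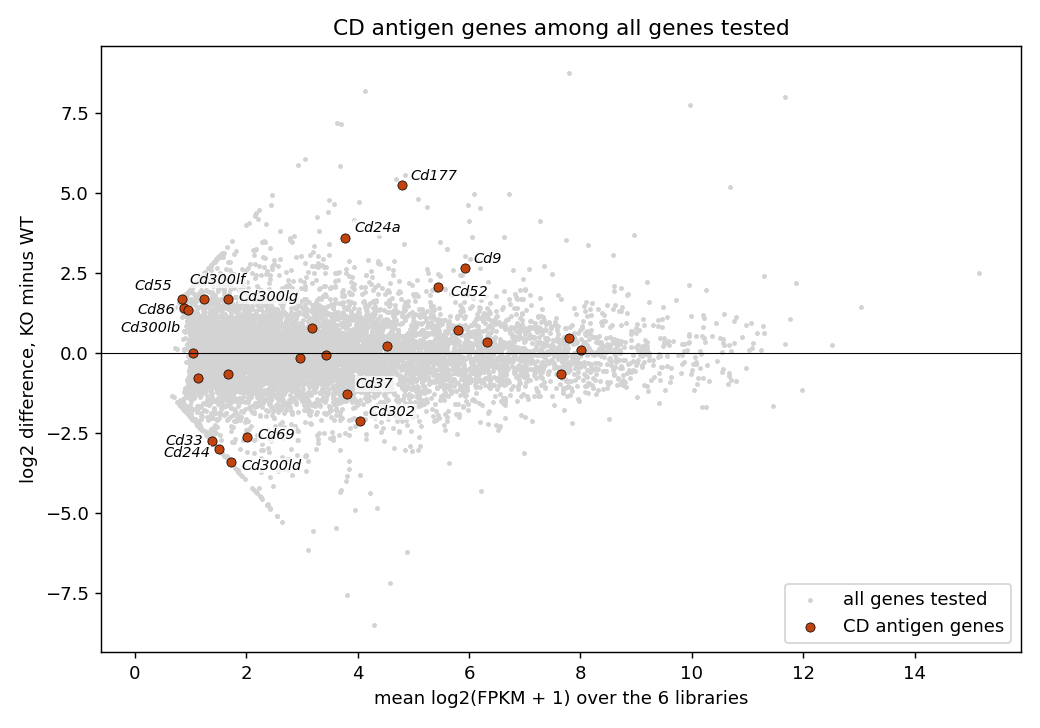
Log2 difference, KO minus WT, against the mean log2(FPKM + 1) over the 6 libraries for the 9108 genes tested (grey) and the 27 CD antigen rows (orange), those with a difference of at least 1 either way being named. Cd33, Cd244 and Cd300ld lie on the lower edge of the cloud, where genes with no or almost no KO reads fall.

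The stretch before the gene start is shown for 5 members. Cd244 and Cd300ld had at most 1 read over the KO libraries, as did Cd33 and some members under the filter, which are not shown. Cd55 had 1 read over the WT libraries, and Cd177 and Cd9 were the 2 with the lowest adjusted p among those that rose. Each line holds the 210 bases from position -250 to -41 before the RefSeq start (GRCm38.p6), 5′ to 3′ on the gene's strand, and none overlaps an exon of its own gene in GENCODE M21. They lie at chr1:171558943-171559152 on the plus strand (Cd244), and on the minus strand at chr11:114989927-114990136 (Cd300ld), chr1:130462785-130462994 (Cd55), chr7:24760352-24760561 (Cd177) and chr6:125494801-125495010 (Cd9, where the antisense gene Gm26728 has an exon). Capitals mark matches to motif letters of blood cell transcription factors.
Cd244: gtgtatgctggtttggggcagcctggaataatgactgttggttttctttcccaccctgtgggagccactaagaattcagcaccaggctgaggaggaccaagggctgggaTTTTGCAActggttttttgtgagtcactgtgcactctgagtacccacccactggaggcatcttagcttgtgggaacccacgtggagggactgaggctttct
Cd300ld: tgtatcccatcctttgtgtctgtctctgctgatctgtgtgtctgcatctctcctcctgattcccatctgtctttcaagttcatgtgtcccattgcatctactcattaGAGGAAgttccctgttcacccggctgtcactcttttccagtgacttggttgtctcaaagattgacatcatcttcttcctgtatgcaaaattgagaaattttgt
Cd55: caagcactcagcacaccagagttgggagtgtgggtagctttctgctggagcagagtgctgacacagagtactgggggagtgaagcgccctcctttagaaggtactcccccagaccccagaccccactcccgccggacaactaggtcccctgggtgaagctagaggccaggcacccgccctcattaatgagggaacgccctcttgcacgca
Cd177: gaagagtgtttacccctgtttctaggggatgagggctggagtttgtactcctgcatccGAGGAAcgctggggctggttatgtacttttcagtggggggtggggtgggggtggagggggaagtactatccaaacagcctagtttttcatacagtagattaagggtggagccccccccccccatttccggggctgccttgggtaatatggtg
Cd9: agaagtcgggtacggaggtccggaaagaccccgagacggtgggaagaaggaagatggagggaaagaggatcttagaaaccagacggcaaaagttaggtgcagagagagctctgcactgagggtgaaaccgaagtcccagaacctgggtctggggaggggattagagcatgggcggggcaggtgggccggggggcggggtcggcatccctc

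Both strands were searched for the core letters of PU.1, GAGGAA, an ETS factor of myeloid cells. For the C/EBP factors of granulocytes the letters were TTGCNNAA. RUNX factors were searched as TGTGGT and HOX-PBX pairs as TGATNNAT. For the GATA factors of erythroid and mast cells the letters AGATAA were used. No matches overlap in these 5 stretches. Cd244 held a C/EBP match on the opposite strand at -141 to -134, Cd300ld a PU.1 core match at -143 to -138 and Cd177 one at -192 to -187. Cd55 and Cd9 held none of these letters in this window. G and C made up 60.5% and 61.0% of their stretches, against 43.3% for Cd300ld, 52.9% for Cd244 and 55.2% for Cd177. RefSeq starts were found for 56 of the 75 symbols, in 64 windows. The PU.1 core letters stood in 32.8% of these windows and in 19.6% of all 32851 windows of the same length, and the C/EBP letters in 17.2% and 8.44%. For RUNX the shares were 15.6% and 12.2%, for GATA 10.9% and 8.77%, and for HOX-PBX 6.25% and 6.68%. A match is a description of letters and not a site of binding.

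The tetraspanins were the most abundant family, summing as deposited to between 607 and 622 FPKM in the KO libraries and between 567 and 582 FPKM in the WT libraries. The direction of this sum turns with the scaling: as a share of all FPKM it was lower in every KO library than in any WT library. All 7 rows were tested: 3 were higher in KO, 3 were lower and Cd151 was not called. Cd9 (ENSMUSG00000030342, chr6:125460266-125494791), a tetraspanin of platelets, basophils and eosinophils among other blood cells, had 147, 151 and 153 FPKM in KO libraries, against 22.8, 23.5 and 23.3 FPKM in WT libraries. Every KO library lay far above every WT library, with means of 150.4 ± 2.96 FPKM in KO and 23.2 ± 0.361 FPKM in WT libraries (SD, n = 3 each), a 6.48-fold difference (log2 2.64 ± 0.03 SE, limma adjusted p = 1.63e-09). Of its exonic bases 10.67% are shared with Gm26728, and whether the counting used strand is not known. Its processed pseudogene on another chromosome, Cd9-ps, averaged 1.41 FPKM in KO and 0.226 FPKM in WT libraries. Markers of mast cells, basophils and eosinophils moved with Cd9: the 10 summed to between 567 and 598 FPKM in KO and between 30.1 and 36.2 FPKM in WT libraries, 8 of 8 tested being higher, with Il5ra at 0. The 10 megakaryocyte and platelet markers summed to between 12.9 and 14.1 FPKM in KO and between 4.99 and 5.89 FPKM in WT libraries, with Ppbp, Gp9, Gp1ba and Gp1bb at 0. Nearly all of this sum was Pf4, the 1 marker of the list tested, at 13.2 FPKM in KO and 5.53 FPKM in WT libraries. The part of either list in the Cd9 difference was not tested.

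Cd37 and Cd53, tetraspanins of mature leukocytes, were lower in KO. The main Cd37 row (ENSMUSG00000030798) had 8.93, 6.15 and 9.27 FPKM in KO libraries, against 20.7, 19.7 and 21.8 FPKM in WT libraries. The genotypes did not overlap, and the WT mean was 2.56 times the KO mean (log2 -1.27 ± 0.14 SE, adjusted p = 8.24e-05). The second Cd37 row (ENSMUSG00000109208), which GENCODE M21 does not hold, was lower too, at 1.56 ± 0.207 FPKM in KO and 3.01 ± 0.329 FPKM in WT libraries (log2 -0.65, adjusted p = 0.000567), and how reads were divided between the 2 IDs is not known. Cd53 averaged 158 ± 7.70 FPKM in KO and 250.5 ± 5.5 FPKM in WT libraries (log2 -0.66 ± 0.04 SE, adjusted p = 2.64e-06). The 10 B cell markers summed to between 56.2 and 58.3 FPKM in KO and between 85.8 and 93.5 FPKM in WT libraries, with Pax5 at 0. Of the 3 tested, Ighm was higher, at 54.4 FPKM in KO and 33.7 FPKM in WT libraries, and Cd79b (2.48 FPKM in KO and 54.6 FPKM in WT libraries) and Vpreb3 were lower, and their part in the Cd37 difference was not tested.

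Cd81, which joins the B cell coreceptor and is carried by most cells, was the most abundant member or nearly so in every library, with 262 to 268 FPKM in KO and 244 to 255 FPKM in WT libraries (log2 0.09 ± 0.02 SE, adjusted p = 0.00803). Cd82, a tetraspanin known as a suppressor of metastasis, averaged 24.0 ± 0.703 FPKM in KO and 20.4 ± 1.29 FPKM in WT libraries (log2 0.22 ± 0.05 SE, adjusted p = 0.00672). Both rises are smaller than the shift from rescaling. Under it both were called lower in KO, Cd81 at -0.38 (limma adjusted p = 7.7e-07) and Cd82 at -0.23 (limma adjusted p = 0.00479). Cd151, a partner of laminin-binding integrins, had 5.76 to 6.73 FPKM in KO and 6.28 to 8.30 FPKM in WT libraries, overlapping ranges (log2 -0.17, adjusted p = 0.170).

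Among adhesion molecules and sialomucins, 5 of 9 rows were tested and 4 were higher in KO; Cd36, Cd96, Cd226 and Cd248 were at 0 in every library. The rise was largest for Cd24a (ENSMUSG00000047139, chr10:43578284-43584265), the heat-stable antigen, a small glycoprotein on a GPI lipid anchor that immature blood cells and granulocytes carry. It had 45.1, 47.6 and 47.2 FPKM in KO libraries, against 3.08, 2.44 and 3.32 FPKM in WT libraries. The KO mean was 15.8 times the WT mean with no overlap (log2 3.60 ± 0.09 SE, adjusted p = 4.01e-08). The 10 erythroid markers summed to between 54.3 and 55.6 FPKM in KO and between 19.6 and 22.9 FPKM in WT libraries, 5 of 5 tested being higher and Rhag at 0. Of these 5, Hba-a2 was not called after rescaling (log2 0.08, limma adjusted p = 0.659). The part of the erythroid markers in the Cd24a difference, and that of the neutrophil markers given below, was not tested. Cd52 (chr4:134082448-134095082), a very short GPI-anchored glycopeptide of lymphocytes and monocytes, had 88.7, 89.7 and 84.0 FPKM in KO libraries, against 20.9, 19.1 and 21.1 FPKM in WT libraries. That is 4.29-fold (log2 2.05 ± 0.05 SE, adjusted p = 3.67e-08), and 14.49% of its exonic bases are shared with Crybg2.

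Cd164, a sialomucin of progenitor adhesion, averaged 69.9 ± 0.925 FPKM in KO and 42.5 ± 3.15 FPKM in WT libraries (log2 0.71 ± 0.05 SE, adjusted p = 1.26e-05). Cd47, the ligand of the macrophage receptor SIRPα that restrains phagocytosis, had 257 to 261 FPKM in KO and 182 to 192 FPKM in WT libraries (log2 0.46 ± 0.03 SE, adjusted p = 2.10e-06). With the libraries rescaled its difference was -0.01 (adjusted p = 0.829), so its rise is of the size of the shift between the scalings. Cd44, the hyaluronan receptor, had 8.98 to 9.86 FPKM in KO and 9.70 to 10.5 FPKM in WT libraries, which overlapped (log2 -0.06, adjusted p = 0.407), and was lower at -0.48 after rescaling (adjusted p = 0.000232).

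Cd177 (ENSMUSG00000052212, chr7:24743983-24760311) showed the largest difference of all members. It is a GPI-anchored antigen of neutrophils, which in humans displays proteinase 3 at the surface and binds PECAM1. Its level was 168, 166 and 171 FPKM in KO libraries, against 3.66, 3.21 and 3.67 FPKM in WT libraries. The 48.0-fold difference (log2 5.23 ± 0.05 SE, adjusted p = 8.37e-10) made it the third most abundant member in KO by mean. The genes of both human partners, taken from the marker lists and named after their values were seen, differed in opposite directions: Prtn3 averaged 2056 FPKM in KO and 472 FPKM in WT libraries, and Pecam1 0.00414 FPKM in KO and 2.38 FPKM in WT libraries. The 10 neutrophil markers moved with Cd177, summing to between 71423 and 72819 FPKM in KO and between 317 and 332 FPKM in WT libraries, with 7 of 7 tested markers higher. Of these 7, Camp was not called after rescaling (log2 0.13, limma adjusted p = 0.286). The part of the neutrophil markers in the Cd177 difference was not tested. In bulk libraries a change in the number of cells that carry a transcript and a change in RNA per cell cannot be told apart, and this holds for every value here.

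The other receptors of innate sensing and uptake were Cd320 and Cd302 among the tested genes, and 5 below 1 FPKM or at 0. Cd302 (chr2:60251993-60284488), a C-type lectin receptor of phagocytes, had 6.24, 7.84 and 6.51 FPKM in KO libraries, against 34.4, 33.9 and 31.8 FPKM in WT libraries. It was clearly lower in KO, the WT mean being 4.86 times the KO mean (log2 -2.13 ± 0.08 SE, adjusted p = 3.20e-07). Cd320, the receptor for vitamin B12 bound to transcobalamin, averaged 88.2 ± 2.54 FPKM in KO and 70.0 ± 3.28 FPKM in WT libraries (log2 0.33 ± 0.04 SE, adjusted p = 0.000211). After rescaling it was called lower in KO, at -0.13 (limma adjusted p = 0.0108).

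Below the filter, the antigens Cd14, Cd163 and Cd101 of myeloid cells were lower in KO. Of the 20 members with a mean under 1 FPKM, 9 (45%) were called when every gene above 0 was fitted, 2 higher and 7 lower, against 49.4% of the 21132 genes of that fit. Cd14, the lipopolysaccharide coreceptor, had 0.298, 0.279 and 0.0983 FPKM in KO libraries, against 1.40, 0.949 and 1.31 FPKM in WT libraries (log2 -0.86, adjusted p = 0.00133). Cd163, the haemoglobin scavenger receptor, had no read in KO, against 141 reads and 0.490, 0.698 and 0.493 FPKM in WT libraries. Set against 3 reads over the group, it was at least 38.9-fold lower (adjusted p = 0.000284). Cd101, an immunoglobulin-like antigen of myeloid cells, averaged 0.0576 FPKM in KO and 0.386 FPKM in WT libraries (adjusted p = 0.002). The 10 monocyte and macrophage markers summed to between 116 and 126 FPKM in KO and between 382 and 397 FPKM in WT libraries, nearly all of it Ly6c2, with C1qa and C1qc at 0 in all 6. The other tested marker, Adgre1, was higher, at 10.3 FPKM in KO and 3.34 FPKM in WT libraries (adjusted p = 8.96e-07), and their part in these differences was not tested.

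The CD300 and Siglec receptors split by gene. Of 11 rows 6 were tested, 4 higher and 2 lower. The group sum as deposited hardly differed, at 20.5 to 21.6 FPKM in KO and 21.4 to 24.1 FPKM in WT libraries. As a share of all FPKM, which summed higher in KO, the group was lower in every KO library than in any WT library. Cd33 (ENSMUSG00000004609, chr7:43524216-43544428), a sialic acid-binding lectin whose human counterpart is an antibody target in acute myeloid leukaemia, had no read in any KO library, against 5.25, 6.09 and 6.09 FPKM and 2043 reads in WT libraries. That puts it at least 563-fold lower, counted against 3 reads over the KO group (log2 -2.77 ± 0.08 SE, adjusted p = 1.01e-07). Cd300ld (ENSMUSG00000034641, chr11:114982274-114989922), an activating receptor of myeloid cells, had 0, 0 and 0.0292 FPKM in KO libraries, against 9.46, 10.4 and 9.65 FPKM in WT libraries. The single KO read against 1175 WT reads gives a WT to KO ratio of 971, with a 95% exact counting interval of 174 to 38402 (log2 -3.42 ± 0.07 SE, adjusted p = 2.22e-08).

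The 4 receptors that rose were the inhibitory Cd300a and Cd300lf, the activating Cd300lb and Cd300lg, an endothelial mucin-like member. Cd300lf had 3.22, 3.29 and 3.23 FPKM in KO libraries, against 0.214, 0.397 and 0.358 FPKM in WT libraries (log2 difference 1.68 ± 0.08 SE, adjusted p = 1.31e-06). Cd300lb had 1.98, 1.83 and 2.38 FPKM in KO libraries, against 0.0539, 0.208 and 0.438 FPKM in WT libraries, which is 8.86-fold (log2 1.32 ± 0.14 SE, adjusted p = 6.44e-05). In both, the lowest KO library stood well above the highest WT library. Cd300lg had 4.77, 4.87 and 4.49 FPKM in KO libraries, against 0.632, 1.17 and 0.570 FPKM in WT libraries, 5.95-fold higher without overlap (log2 1.69 ± 0.13 SE, adjusted p = 1.43e-05). The 10 endothelial and stromal markers summed to between 0.528 and 0.936 FPKM in KO and between 2.82 and 3.57 FPKM in WT libraries, with Cdh5 and Emcn at 0. The 1 tested among them was Pecam1, which makes up most of the WT sum, while Pdgfrb averaged 0.654 FPKM in KO and 0.737 FPKM in WT libraries, and their part in the Cd300lg difference was not tested. Cd300a averaged 10.9 ± 0.483 FPKM in KO and 5.94 ± 0.309 FPKM in WT libraries (log2 0.78 ± 0.06 SE, adjusted p = 1.40e-05).

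All CD300 members but Cd300lg lie in 1 cluster on chromosome 11, where 12 protein-coding genes span 272 kb. The genes near both ends rose, Cd300a and Cd300lb at one and Rab37 (3.03 FPKM in KO and 0.295 FPKM in WT libraries, adjusted p = 1.64e-05) and Cd300lf at the other, while Cd300ld and its neighbour AF251705, named Cd300c2 in GENCODE M21, were lower. AF251705 is no member by name and had no KO read, against 3.32 ± 0.579 FPKM and 186 reads in WT libraries, at least 51.3-fold lower (adjusted p = 1.78e-06). Between them and Rab37, the rows Gm11709, Gm11710, Gm11711, Cd300lh and Cd300e were at 0 in all 6 libraries. Cd300lf lies within the span of Rab37 on the opposite strand, with no exonic bases shared. Cd300c had no KO read and 0, 1 and 9 reads in the WT libraries, overlapping values. CD300 genes are near copies of each other in part, and how reads that map to several of them were counted is not known.

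The SLAM cluster on chromosome 1 holds 8 protein-coding genes over 394 kb, and the receptor gene at its end had no KO read. Cd244 (ENSMUSG00000004709, named Cd244a in GENCODE M21, chr1:171559193-171609746), the receptor 2B4 of natural killer and myeloid cells, had no read in any KO library, against 6.42, 7.77 and 7.17 FPKM and 1577 reads in WT libraries. It was at least 435-fold lower by 3 reads over the KO group (log2 -3.02 ± 0.09 SE, adjusted p = 8.08e-08). Cd48, its ligand and a gene of the same cluster that the naming rule leaves out, averaged 18.4 ± 0.849 FPKM in KO and 46.4 ± 0.694 FPKM in WT libraries (log2 -1.29, adjusted p = 1.58e-07). Ly9, a self-binding receptor whose gene lies within the span of Cd244 on the opposite strand, averaged 1.28 FPKM in KO and 6.75 FPKM in WT libraries (log2 -1.77, adjusted p = 5.57e-07). Cd84, another self-binding receptor, was 0.860, 1.37 and 0.974 FPKM in KO libraries, against 1.09, 1.05 and 1.07 FPKM in WT libraries. Its libraries overlapped and no difference was called (log2 -0.01, adjusted p = 0.936), and Cd2, a related adhesion receptor, was at 0. Natural killer cell markers were near 0 throughout, 7 of 8 having no read in any library and the summed level reaching 0.0399 FPKM at most.

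**Figure D3:**
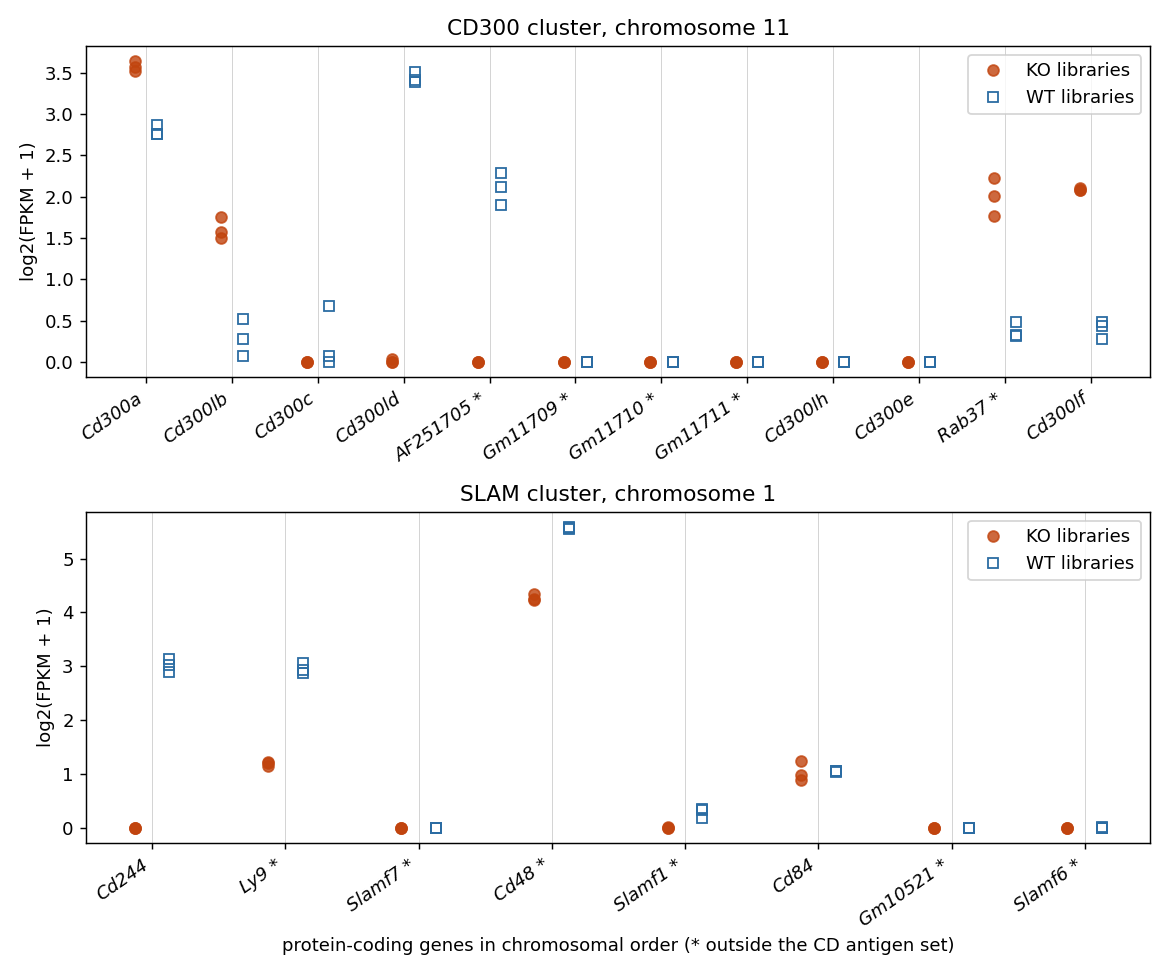
Log2(FPKM + 1) in each KO library (filled circles) and WT library (open squares) for the protein-coding genes of the CD300 cluster (top) and the SLAM cluster (bottom), in chromosomal order, with asterisks on genes outside the CD antigen set. In the CD300 cluster the outer genes were higher in KO and Cd300ld and AF251705 were higher in WT; in the SLAM cluster Cd244, Ly9 and Cd48 were higher in WT and Cd84 overlapped.

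Cd302, described above, is a C-type lectin too. Of the 10 other C-type lectin rows Cd69 was the 1 with a mean of at least 1 FPKM, and Cd207 and the 7 listed Cd209 genes, lectins of dendritic cells and macrophages, were at 0. Cd69 (ENSMUSG00000030156, chr6:129267325-129275436), an early activation antigen that holds leukocytes in tissue by countering the receptor S1PR1, had 0.612, 0.512 and 0.736 FPKM in KO libraries, against 8.76, 9.39 and 8.81 FPKM in WT libraries. The WT mean was 14.5 times the KO mean with no overlap (log2 -2.63 ± 0.08 SE, adjusted p = 1.05e-07). Cd72, a B cell inhibitory lectin, had 22 reads in KO and none in WT libraries, but 41.58% of its exonic bases are shared with Tesk1 and it was not called (adjusted p = 0.0598).

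The complement regulators moved in opposite directions. Cd55 (ENSMUSG00000026399, chr1:130439027-130462744), decay-accelerating factor, which takes apart C3 convertases on the cell's own membrane, had 2.30, 2.24 and 2.02 FPKM in KO libraries, against 0.0162, 0 and 0 FPKM in WT libraries. With 394 KO reads and 1 WT read the KO to WT ratio was 477, with a counting interval of 85.0 to 18870.2 (log2 1.66 ± 0.08 SE, adjusted p = 9.95e-07). Cd59b, an inhibitor of the membrane attack complex, had 0.421, 0.675 and 0.951 FPKM in KO libraries, against 2.0, 2.17 and 1.47 FPKM in WT libraries, with no overlap (log2 -0.78 ± 0.15 SE, adjusted p = 0.00193). Its neighbour and near copy Cd59a, with 33 KO and 13 WT reads, overlapped between genotypes (adjusted p = 0.155), and the split of reads between the 2 genes is uncertain. Cd109, a GPI-anchored relative of proteinase inhibitors, had 42 KO reads and none in WT libraries, at least 16.9-fold higher by 3 reads over the WT group (adjusted p = 0.00609). Cd46 and Cd55b were at 0.

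The B7 ligands of T cell costimulation differed in opposite directions. Cd86 (ENSMUSG00000022901, chr16:36603869-36666081) had 2.18, 1.87 and 1.90 FPKM in KO libraries, against 0.193, 0.0302 and 0.194 FPKM in WT libraries. The KO mean was 14.3 times the WT mean with no overlap (log2 1.39 ± 0.10 SE, adjusted p = 7.86e-06). Cd80 (ENSMUSG00000075122, chr16:38455561-38496335), the other ligand of CD28 and CTLA4, had 0.0919, 0 and 0 FPKM in KO libraries, against 1.94, 1.92 and 1.33 FPKM in WT libraries. Its mean stayed under the filter. In the fit of every gene above 0 it was lower (log2 -1.40, adjusted p = 0.000142), and 2 KO and 133 WT reads, the smallest numbers its values allow, give a WT to KO ratio of 55.0 with an interval of 14.9 to 459. Cd274, which encodes the checkpoint ligand PD-L1, had 0.475 to 0.683 FPKM in KO and 0.646 to 0.885 FPKM in WT libraries, which overlapped (adjusted p = 0.191). The 10 dendritic cell markers summed to between 37.9 and 45.5 FPKM in KO and between 25.8 and 32.5 FPKM in WT libraries, with Cd209a and Ccr7 at 0. Nearly all of that sum was Bst2, at 41.6 FPKM in KO and 27.3 FPKM in WT libraries, which was not called after rescaling (adjusted p = 0.251). Flt3 had no read in KO and 406 in WT libraries, Xcr1 none in KO and 43 in WT libraries, and Batf3 66 in KO and none in WT libraries, and the part of these markers in the Cd86 and Cd80 differences was not tested. Cd40, Cd40lg, Cd70, Cd83 and Cd276 were at 0 in every library.

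The lymphocyte coreceptors and signalling chains among the members were near 0. None of these 11 rows reached a mean of 1 FPKM, Cd3e, Cd3g, Cd7 and Cd8a were at 0 in all 6 libraries, and 7 of 10 T cell markers had no read in any. The kinase Lck was the 1 T cell marker tested, at 0.588 FPKM in KO and 2.15 FPKM in WT libraries (adjusted p = 2.61e-05), and its part in the differences of Cd5 and Cd28 was not tested. Cd5, a brake on antigen receptor signalling, had no read in KO and 15 reads in WT libraries, at least 4.13-fold lower (adjusted p = 0.0248). Cd28, the costimulatory receptor, had no read in KO and 34 reads in WT libraries, at least 9.37-fold lower (adjusted p = 0.0124). Cd38, an enzyme that breaks down NAD at the cell surface and is used to stage progenitors, had no KO read, against 0.222, 0.327 and 0.255 FPKM and 48 reads in WT libraries. It was at least 13.2-fold lower (log2 -0.34, adjusted p = 0.000471). The remaining 8 members under 1 FPKM, Cd22, Cd27, Cd180, Cd3d, Cd160, Cd4, Cd247 and Cd6, had at most 17 reads over a genotype, and Cd160, with 7 KO reads and none in WT, was the one called among them (adjusted p = 0.0103).

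Added up, the CD antigen rows came to between 1372.4 and 1389.0 FPKM in KO and between 984.6 and 1008.1 FPKM in WT libraries. As a share of all FPKM the genotypes overlapped, at 0.2111% to 0.2125% in KO and 0.2073% to 0.2142% in WT libraries. By share, then, the make-up differed and the total did not, while the sum as deposited was higher in KO. Cd81 and Cd47 were the leading pair in KO, with 19.3% and 18.8% of the members' FPKM, while Cd53 and Cd81 led in WT with 25.2% and 25.1%. Cd177 held 12.2% in KO and 0.354% in WT, Cd9 10.9% in KO and 2.34% in WT, Cd52 6.34% in KO and 2.05% in WT, and Cd24a 3.38% in KO and 0.297% in WT. Cd53 held 11.4% in KO and 25.2% in WT, and Cd302 0.497% in KO and 3.36% in WT. Cd47 kept close shares of 18.8% in KO and 18.9% in WT. Members above 0 numbered 34 or 35 per library in KO and 38 to 40 in WT, beside 14560 to 14691 of all genes in KO libraries and 15956 to 16466 in WT libraries, which were likewise fewer in KO.

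**Figure D4:**
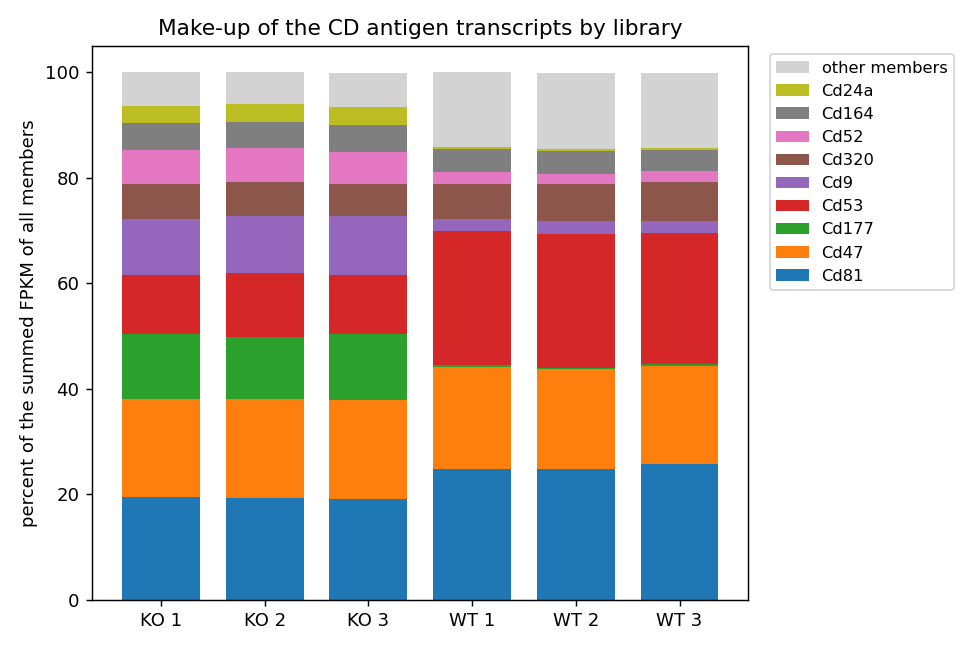
Percent of the summed FPKM of all CD antigen rows taken by each of 9 genes and by the rest, per library, the 3 KO libraries at the left and the 3 WT libraries at the right. Cd177, Cd9, Cd52 and Cd24a take more of each KO bar, and Cd53 and the other members more of each WT bar.

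Genes that work with these antigens but carry other names were counted in the same fit. Of 212 list entries 115 were tested. Of these, 52 were higher, 45 lower and 18 not called, with a median log2 difference of 0.07 against -0.02 for all genes. Over all 9108 genes tested 78.4% were called, 38.0% higher and 40.4% lower, so a call says little about a gene of these lists. With the libraries rescaled 39 of the related genes were higher and 64 lower, and by voom on recovered reads 46 were higher and 56 lower. The other tetraspanins, listed with partner proteins, had 7 higher and 4 lower of 13. Tspan13, Tspan6 and Tspan3 had the largest rises, Tspan13 at 21.8 ± 0.896 FPKM in KO and 0.659 ± 0.310 FPKM in WT libraries. Tspan4, a tetraspanin of migrasomes, fell to 19.6 ± 0.681 FPKM in KO, against 109.6 ± 0.743 FPKM in WT libraries (log2 -2.43, adjusted p = 4.27e-09), with Upk1a and Tspan17 the other large falls. Among the Siglec, SIRP and paired receptors 6 of 13 were higher and 5 lower. Cd200r1, an inhibitory receptor whose ligand gene Cd200 was at 0, averaged 15 FPKM in KO and 2.94 FPKM in WT libraries, and the adaptor Hcst and the overlapping gene Lilrb4a also rose. The collagen receptor Lair1 averaged 0.316 FPKM in KO and 8.01 FPKM in WT libraries, with Pilra and Pilrb1 the next falls.

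The partners of Cd14 and Cd180 in lipopolysaccharide sensing had 2 higher (Ticam1 and Tlr2) and 4 lower of 8. Ly86, which encodes the partner of Cd180, averaged 1.87 ± 0.423 FPKM in KO and 57.0 ± 0.316 FPKM in WT libraries (log2 -4.35, adjusted p = 3.80e-08), Tlr1 had no KO read, and Tirap was lower as well. Around the complement regulators, C3 averaged 49.9 FPKM in KO and 1.42 FPKM in WT libraries and the receptor gene C5ar1 14.6 FPKM in KO and 1.74 FPKM in WT libraries. Properdin, Cfp, which stabilises the C3 convertase that Cd55 takes apart, averaged 42.2 FPKM in KO and 375 FPKM in WT libraries, and Cr1l was 1.15-fold lower. Of the Cd44 partners, Ezr was 2.08-fold higher and Rdx and Hmmr were lower, while Msn, at 1.08-fold, turned to -0.35 after rescaling.

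All 3 tested SLAM genes without a CD name were lower: Slamf9 and the adaptor Sh2d1b1 had no KO read against 1037 and 1295 WT reads, and Ly9 is given above. Of 6 B7 and TNF receptor genes 3 were higher, Vsir (42.8 FPKM in KO and 9.73 FPKM in WT libraries), Tnfsf14 and Tnfrsf4, and 3 lower, Btla with no KO read, Tnfrsf18 and Tnfrsf13b. The enzymes that build the GPI anchor of Cd24a, Cd52, Cd55 and Cd177 had 8 higher, 6 lower and 7 uncalled of 21. Pigc, Piga and Pigo were 2.0-fold to 2.25-fold higher, and Pigh, Pgap2 and Pigb were lower, Pigh with 3 KO and 307 WT reads and 33.1% of its exonic bases in common with another gene. Of 43 tested CD-numbered antigens under other symbols 22 were higher and 16 lower. Thy1 averaged 23.0 FPKM in KO and 1.01 FPKM in WT libraries, the shared cytokine receptor chain Csf2rb 149.7 FPKM in KO and 14.8 FPKM in WT libraries, and Alcam had 814 KO reads and none in WT. Clec12a and Dpp4 had no KO read, against 13.4 and 7.6 FPKM in WT libraries, and Clec4d averaged 2.70 FPKM in KO and 51.6 FPKM in WT libraries.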

How the data were processed

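RNA-seq of 6 libraries was analysed, 3 KO and 3 WT, grouped by their titles. Per the labels' protocols, sorted cells went into Trizol, Smart-seq2 cDNA went into Nextera XT libraries. Per the submitters' processing notes, CASAVA and bcl2fastq were used, with STAR 2.5.3a, DESeq2 1.18.1 and the genome build mm10. The authors deposited 1 table of FPKM values; which counter and annotation were used, whether strand was used and what became of multimapped reads is not given in the sources used here.

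Log2(FPKM + 1) of the 9108 genes averaging 1 FPKM or more was tested in limma 3.58.1 (R 4.3.3) with a mean-variance trend, two-sided, with Benjamini-Hochberg adjustment over all of them at 0.05. The same fit over all 21132 genes above 0 gave the values of members under 1 FPKM. Other steps ran in Python 3.11.15 with pandas 2.3.3, numpy 2.4.6, scipy 1.17.1 and matplotlib 3.10.9, and the test was tried on simulated data.

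Whole reads were recovered from FPKM with exonic lengths of GENCODE M21 (GRCm38, mm10), with 99.12% of the IDs in it. Of the genes above 0, 16593 came out whole within 0.01 reads at that length. The other 4539 came out whole within 0.02 at a searched length, where read numbers are the smallest the values allow; these include 12 members, Cd80, Cd14 and Cd5 among them. Floors of 3 reads over a group and 95% exact intervals allow for counting error alone, as PCR copies were not told from separate molecules.

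The members, role lists and related lists were chosen with earlier results of these data known. Members averaging 1 FPKM or more are named, with values in every library where a called log2 difference reached 1. Members under that mean are named where a library reached 1 FPKM, or where 1 genotype had no read and the other averaged at least 0.1 FPKM. Of each related list, the 3 largest called rises and falls are named. Cd3d, Cd4, Cd6, Cd22, Cd27, Cd59a, Cd101, Cd160, Cd180, Cd247, Cd274, the zero rows, and genes outside the set named as neighbours, partners or markers of a member are named beyond this rule, after their values were seen. Promoter sequences are from RefSeq. Alternatives were a pseudocount of 0.1, 2 other filters, 2 scalings, no trend, the replicate block and leaving out each library. Voom on recovered reads, chosen after seeing the data, was a further alternative. It replaces FPKM by reads scaled to each library's own total over the genes tested, so the scaling changes along with the weights. Some genes of the lists are not reported here.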

Additional observations from a re-analysis of the deposited data

How the results depend on the processing

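Of the 27 tested members, 20 kept both direction and call in every alternative that tested them. The count of members lower in KO, 9, was 16 with every gene above 0 tested, 3 at a mean of at least 5 FPKM, which tests fewer genes, and 14 with libraries rescaled to equal sums. All genes higher, 3464, became 2072 at 5 FPKM and 2074 rescaled; all genes lower, 3676, became 5769 with every gene above 0, 2383 at 5 FPKM and 5383 rescaled; related genes lower, 45, became 27 at 5 FPKM. The members' median log2 difference, 0.22, was 0.33 at 5 FPKM, 0.27 after quantile normalization, between 0.18 and 0.26 without single libraries, and reversed to -0.01 with every gene above 0, -0.23 rescaled and -0.04 by voom on recovered reads. Single members reversed as follows: rescaled, Cd81 (-0.38), Cd82 (-0.23), Cd320 (-0.13) and Cd47 (-0.01); by voom, Cd81 (-0.17) and Cd82 (-0.04); and Cd84, uncalled throughout, at 0.00 after quantile normalization, 0.02 without KO replicate 3, and between -0.11 and 0.06 without single libraries. Cd81 was not called without the trend (adjusted p = 0.0685), nor Cd320 by voom (adjusted p = 0.103). Cd151 was called without WT replicate 3 (adjusted p = 0.0394), rescaled and by voom, and Cd44 rescaled and by voom (-0.32, adjusted p = 0.000118). By voom 50% of called members and 36.2% of all called genes were higher. Apart from the scaling, of which the values above show the effect, the cause of these shifts was not tested. Same-numbered KO and WT libraries did not visibly deviate together, their correlations of deviations across genes being 0.0095, -0.0118 and -0.0166. Over every KO and WT pair the correlations lay between -0.0168 and 0.0278. They do not show whether same-numbered libraries were prepared together. With the replicate block 15 members were higher and 9 lower, and 3420 and 3620 of all genes. Counts were lowest for members under 1 FPKM: Cd4, Cd6, Cd180 and Cd300c had no read in KO and 1 to 10 reads over the WT libraries, and were not called in the fit over all genes above 0, while Cd160, with 7 reads in KO and none in WT libraries, was (adjusted p = 0.0103).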
